A study of Mus musculus with 6 samples.

Results

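The HoxB cluster is a run of homeobox genes on mouse chromosome 11, and its transcripts were followed here in embryos that lacked 1 or 2 Frizzled receptors. The group held 10 genes chosen by symbol, namely Hoxb1 to Hoxb9 and the antisense transcript Hoxb5os. A gene was measured where a probe set carried its symbol alone, and 9 of the 10 genes met that condition, among 18193 genes measured in all. Hoxb8 did not, because its probe set also carries the symbol Hoxb7. Where a gene had 2 probe sets, the one with the higher mean over all arrays stood for it, so the mean over the arrays was the measured value used in the choice. The differences of several members were known when the group was put together, and all values of the comparison are given as a description.

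RNA came from whole mouse embryos at embryonic day 8.5, on a mixed C57BL6/129 background and of mixed gender. The single knockout, genotype Fz2+/+; Fz7-/-, and the double knockout, genotype Fz2-/-; Fz7-/-, had 3 arrays each, so every embryo lacked Fzd7 (Fz7 in the labels) and the comparison asked what loss of Fzd2 (Fz2) adds. Neither wild-type embryos nor Fzd2 single knockouts were analysed here. The labels do not say whether an array held 1 embryo or a pool, nor which strain's chromosome surrounds Fzd2 in each embryo. Fzd2 lies on the same chromosome as HoxB. Values are log2 of the probe set signal after RMA (robust multi-array average), so a difference of log2 values is a ratio of signals. They are compared only within a probe set, not between genes.

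Hox genes encode transcription factors that assign regional identity from hindbrain to tail. The genes of a cluster are switched on in the order in which they lie, the Hoxb1 end first and furthest forward, the Hoxb9 end later and further back. In the day 8.5 embryo HoxB genes are active in hindbrain, spinal cord, somites and lateral mesoderm, and retinoic acid, Wnt and Fgf signals and the Cdx factors are known inputs to them. Pbx and Meis proteins bind DNA together with Hox proteins.

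Fzd2 separated the groups as labelled. The single knockout arrays (replicates 1 to 3, in that order here and throughout) read 9.86, 9.99 and 10.01, and the double knockout arrays 7.30, 7.69 and 7.63. The Fzd7 value was 4.92 ± 0.01 in the single and 4.89 ± 0.10 in the double knockout (SD, n = 3), but where its probe sets lie relative to the deletion is not stated in the labels. Double knockout replicate 1 stood apart: across genes it correlated with the other arrays at 0.987 to 0.990, and those 5 with each other at 0.997 to 0.998. Every HoxB result is therefore given with and without this array. All 8 neural tube markers and all 8 paraxial mesoderm markers read above the array medians (5.794 to 5.816) in at least 1 array, as did the 5 measured markers of lateral and intermediate mesoderm.

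The 9 measured HoxB transcripts fell into 3 sorts. Hoxb5os, Hoxb9, Hoxb3 and Hoxb4 read lower in every double knockout array than in any single knockout array. Hoxb2, Hoxb5 and Hoxb7 differed by -0.01, 0.01 and 0.01 between group means. Hoxb1 and Hoxb6 had means above those of the single knockout, with double knockout replicate 1 the highest array in both. None of the 9 passed the threshold, an adjusted p under 0.05 in limma over all 18193 genes (two-sided, Benjamini-Hochberg), where 1 gene, Fzd2, or 0.00550% was called.

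**Figure D1:**
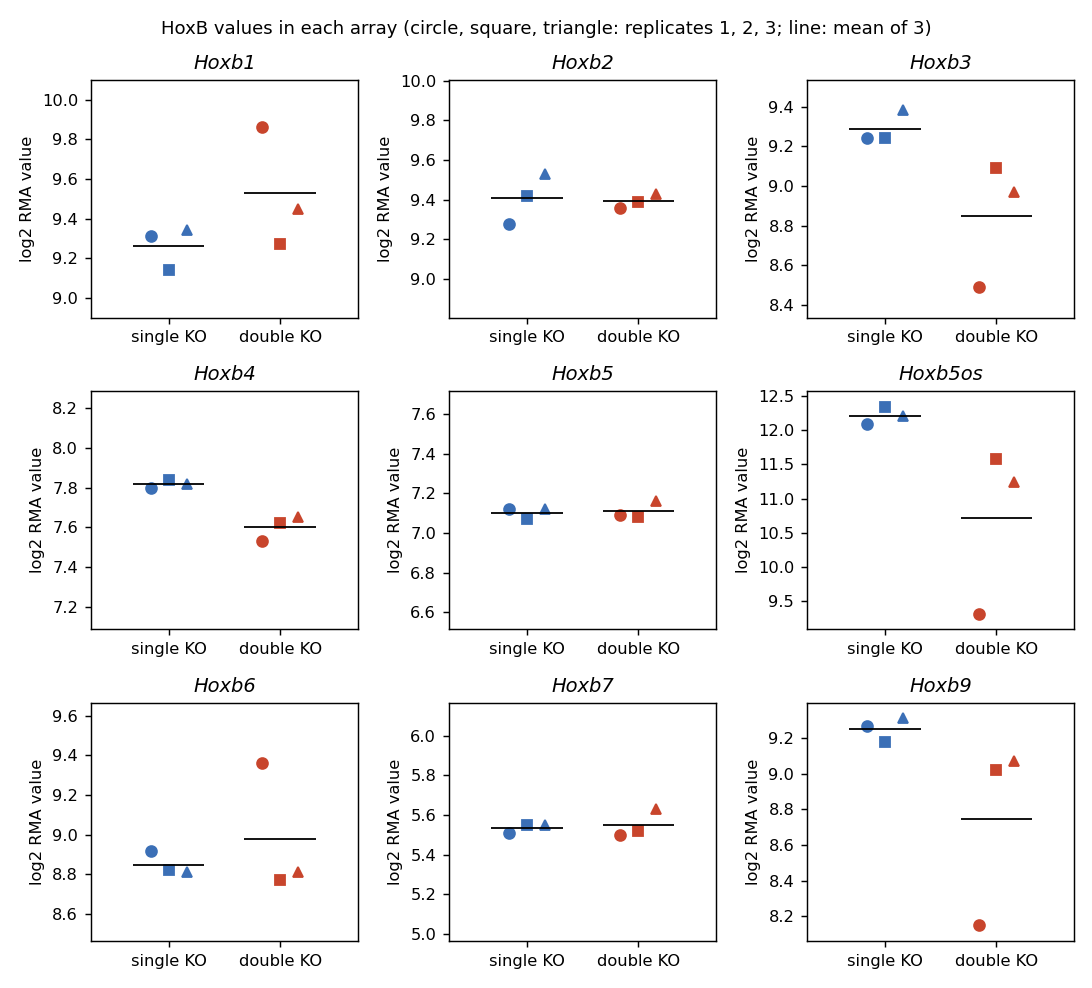
Log2 RMA values of the 9 measured HoxB transcripts (y axis) in the single and double knockout (x axis), with a symbol for each replicate and a line at each mean of 3 arrays; each panel has its own y range. Groups do not overlap for Hoxb3, Hoxb4, Hoxb5os and Hoxb9, and the circle of double knockout replicate 1 lies lowest for Hoxb5os at 9.32 and highest for Hoxb1 at 9.86.

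Hoxb5os is a long noncoding RNA whose gene overlaps those of Hoxb6 and Hoxb5 in the RefSeq table. It read 12.09, 12.34 and 12.20 in the single knockout and 9.32, 11.58 and 11.24 in the double knockout. All 3 double knockout arrays lay below all 3 single knockout arrays, replicate 1 by far the most. The difference was -1.49 (SE 0.56, n = 3 per group, 95% interval -2.84 to -0.14), or 35.5% of the single knockout signal, with a limma adjusted p of 0.872. Intervals here and below are limma intervals for each gene alone and, unlike the adjusted p, take no account of the number of genes. Only 43 genes, 0.236% of all genes, were lower by over 1 log2 unit. Without double knockout replicate 1 the difference was -0.79 (SE 0.12, 95% interval -1.09 to -0.50), or 57.7% of the signal, with a limma adjusted p of 0.677. In that setting 78 genes, 0.429%, were lower by over 0.5 log2 units, and Hoxb5os was number 21 from the lowest difference, against number 15 with all arrays. Its groups had SDs of 0.12 and 1.22 (n = 3 each), so replicate 1 made most of the spread.

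The coding genes that Hoxb5os overlaps did not share this difference. Hoxb5, which acts in neck and upper trunk, read 7.12, 7.07 and 7.12 in the single knockout and 7.09, 7.08 and 7.16 in the double knockout. The values of the groups were intermixed. The difference was 0.01 (95% interval -0.12 to 0.13), and 0.02 without double knockout replicate 1 (-0.13 to 0.16). Hoxb6 read 8.92, 8.82 and 8.81 against 9.36, 8.77 and 8.81. Double knockout replicate 1 was the highest of the 6 arrays and the other two lay at or below the single knockout. Its difference of 0.13 (95% interval -0.25 to 0.52) became -0.06 (-0.21 to 0.09) without that array. Thus in the array where Hoxb5os was 2.89 below the single knockout mean, Hoxb6 was 0.51 above it and Hoxb5 0.01 below. The difference between the transcripts was not tested, and the labels do not state which strand each probe set reads.

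At the late end of the cluster, Hoxb9, a gene of the posterior trunk, read 9.27, 9.18 and 9.31 in the single knockout and 8.15, 9.02 and 9.07 in the double knockout. Every double knockout array was lower, and replicate 1 was lower than the next by a wide margin. The difference was -0.51 (SE 0.24, 95% interval -1.09 to 0.07), or 70.3% of the signal, and -0.21 (-0.37 to -0.05), or 86.3%, without replicate 1. The limma adjusted p was 0.872 and 0.707. Hoxb7, also of the trunk, read 5.51, 5.55 and 5.55 against 5.50, 5.52 and 5.63. All 6 values lay below every array's median, where RMA compresses differences. The difference was 0.01 (95% interval -0.13 to 0.15), and 0.03 (-0.11 to 0.18) without replicate 1. The probe set that carries both Hoxb7 and Hoxb8 read 8.34, 8.11 and 8.25 against 8.10, 8.02 and 8.0. These groups did not overlap either, with means of 8.23 ± 0.12 and 8.04 ± 0.05 (SD, n = 3) and a difference of -0.19, or -0.22 without replicate 1. It lies outside the rule, was not counted, and its signal cannot be divided between Hoxb7 and Hoxb8.

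In the middle of the cluster, Hoxb4, a gene of the lower hindbrain and neck, had the smallest spread of the transcripts whose groups did not overlap. It read 7.80, 7.84 and 7.82 in the single knockout and 7.53, 7.62 and 7.65 in the double knockout. Here replicate 1 was the lowest array but close to the other two. The difference was -0.22 (SE 0.06, 95% interval -0.35 to -0.09), or 85.9% of the signal, with a limma adjusted p of 0.872. Without replicate 1 it was -0.19 (95% interval -0.32 to -0.05) at 87.9%, with an adjusted p of 0.707. The dimmer probe set of Hoxb4 read 6.81, 6.85 and 6.93 against 6.67, 6.66 and 6.60. Those groups did not overlap either, and the difference was -0.21, or -0.23 without replicate 1.

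Hoxb3, which acts in the hindbrain, read 9.24, 9.24 and 9.38 in the single knockout and 8.49, 9.09 and 8.97 in the double knockout. The groups did not overlap, and replicate 1 was again the lowest. The difference was -0.44 (SE 0.16, 95% interval -0.81 to -0.06), or 73.9% of the signal, and -0.26 (-0.44 to -0.07), or 83.8%, without replicate 1. The limma adjusted p was 0.872 and 0.707. The dimmer Hoxb3 probe set did not separate the groups. It read 7.82, 7.99 and 7.75 against 7.43, 7.79 and 7.89, a difference of -0.15 that was -0.02 without replicate 1. The lower value of Hoxb3 thus rests on 1 of its 2 probe sets.

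At the early end, Hoxb2, a hindbrain gene, read 9.28, 9.42 and 9.53 in the single knockout and 9.36, 9.39 and 9.43 in the double knockout. The double knockout values lay inside the single knockout range. The difference was -0.01 (95% interval -0.20 to 0.17), and 0.002 (-0.20 to 0.21) without double knockout replicate 1. Hoxb1, which is known for marking a single segment of the hindbrain as well as posterior tissue, read 9.31, 9.14 and 9.34 against 9.86, 9.27 and 9.45. Replicates 1 and 3 of the double knockout lay above the single knockout and replicate 2 within it. The difference was 0.26 (SE 0.15, 95% interval -0.11 to 0.63) with a limma adjusted p of 0.872, and 0.09 (-0.13 to 0.31) without replicate 1. It was the highest difference among the 9 measured members.

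**Figure D2:**
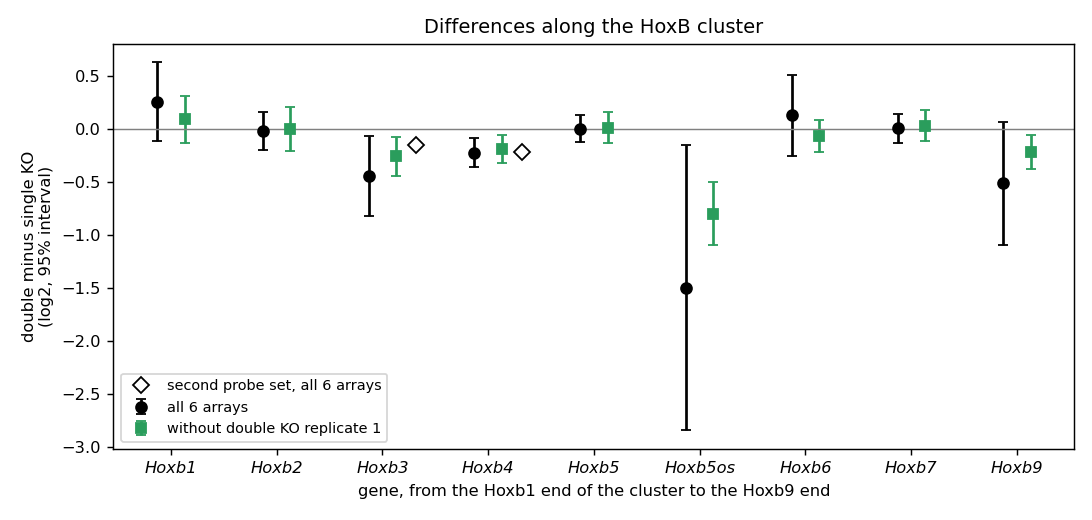
Difference of group means on the log2 scale with its 95% interval (y axis) for each measured HoxB transcript (x axis), with all 6 arrays, without double knockout replicate 1, and for the second probe sets of Hoxb3 and Hoxb4. Hoxb5os lies lowest at -1.49 and -0.79, while Hoxb2, Hoxb5 and Hoxb7 stay close to 0 in both.

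The upstream sequences of Hoxb4 and Hoxb1 are shown because these genes had differences of opposite sign, although the Hoxb1 interval included 0 (-0.11 to 0.63). They were also the only ones of the 9 measured transcripts with a sequence in the promoter set used (GRCm38.p6). Each run ends at the base before the annotated start of the gene, and both are on the plus strand. Hoxb4 is chr11:96318017-96318266 and Hoxb1 is chr11:96365508-96365745. Capitals mark matches, on either strand, to any of 6 motifs: TGATNNAT (Hox with Pbx), CTTTGAT and CTTTGTT (Tcf and Lef, the DNA-binding partners of beta-catenin), TTTATG (Cdx), CCAAT (NF-Y) and CACGTG (an E-box).
Hoxb4: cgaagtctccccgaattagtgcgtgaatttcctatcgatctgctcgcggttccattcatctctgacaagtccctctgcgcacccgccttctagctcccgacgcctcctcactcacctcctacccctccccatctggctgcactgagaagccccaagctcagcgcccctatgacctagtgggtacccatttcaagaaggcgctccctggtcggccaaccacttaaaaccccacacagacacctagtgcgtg
Hoxb1: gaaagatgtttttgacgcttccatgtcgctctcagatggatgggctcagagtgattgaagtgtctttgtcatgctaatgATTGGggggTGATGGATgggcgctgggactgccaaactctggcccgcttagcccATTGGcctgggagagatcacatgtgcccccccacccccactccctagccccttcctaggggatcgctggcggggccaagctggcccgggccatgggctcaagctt

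The Hoxb1 window held 1 match to TGATNNAT, spelled TGATGGAT, beginning 150 bases before the end of the run. A run of such sites is known as the element through which Hoxb1 protein and Pbx maintain Hoxb1 transcription in the hindbrain. Of 32851 promoter windows of this length, 7.43% held the motif. There were also 2 matches to CCAAT on the minus strand, a motif that 32.9% of the windows held. No match overlapped another. None of the 6 motifs was found in the Hoxb4 window, where shares over all windows ran from 3.21% for CTTTGAT to 33.8% for CCAAT. These are matches of letters only.

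As a group, 4 of the 9 measured transcripts (44.4%) had groups that did not overlap, all lower in the double knockout. Over all genes 11.4% did not overlap, 6.60% lower and 4.85% higher. Without double knockout replicate 1 the count was again 4 lower and 0 higher, beside 12.3% lower over all genes. With all arrays 3 of 9 had an unadjusted limma p under 0.05, all lower, beside 4.96% of all genes (3.00% lower), and without replicate 1 this was 4 of 9 beside 6.67%. The median difference was nonetheless near 0, at -0.01 with all arrays and -0.06 without replicate 1, beside -0.0093 and -0.0067 over all genes. The count of members below 0 was 5 of 9 (all genes, 53.8%), also without replicate 1 (53.3%). The cluster was therefore uneven, with Hoxb5 near 0 between Hoxb4 and Hoxb9, which read lower.

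**Figure D3:**
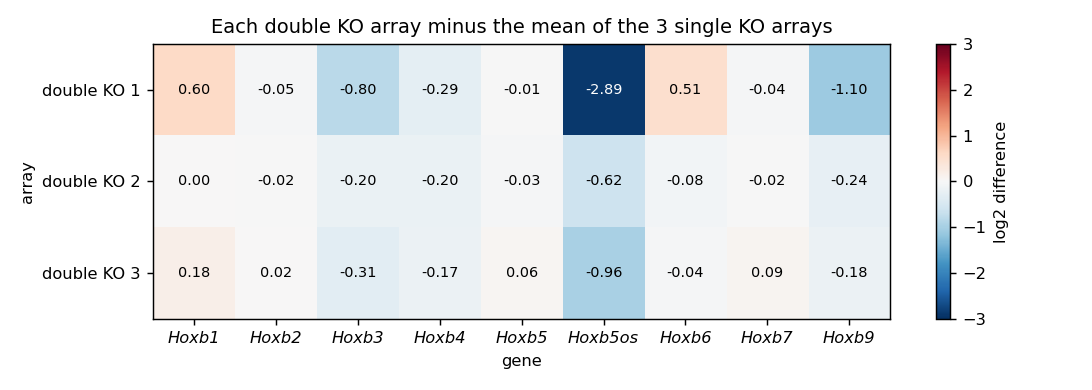
Each double knockout array minus the mean of the 3 single knockout arrays, on the log2 scale, for the measured HoxB transcripts (x axis) in double knockout replicates 1 to 3 (y axis), with blue for lower and red for higher. Hoxb5os is lower in each array (-2.89, -0.62 and -0.96), and Hoxb1 and Hoxb6 are clearly above 0 in replicate 1 at 0.60 and 0.51.

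Seen by array, the same 4 transcripts were below the single knockout mean in all 3 double knockout arrays. This follows from groups that did not overlap and is no further result, but the size varied by array. Hoxb5os differed by -2.89, -0.62 and -0.96 in replicates 1 to 3. For Hoxb9 the values were -1.10, -0.24 and -0.18, and for Hoxb3 -0.80, -0.20 and -0.31. Hoxb4 was the most even at -0.29, -0.20 and -0.17. Replicate 1 was the most extreme of the 3 arrays for Hoxb1, Hoxb2, Hoxb3, Hoxb4, Hoxb5os, Hoxb6 and Hoxb9.

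Markers of several tissues moved with replicate 1, and their part in the HoxB values was not tested. Levels here are sums of linear signal over a list. In whole embryos, fewer cells of a type and less RNA per cell cannot be told apart. The 11 measured visceral endoderm and yolk sac markers summed to 7224 to 9778 in the single knockout and to 42365, 7358 and 7426 in double knockout replicates 1 to 3. Those of trophoblast and placenta (6 measured, with Ctsq, Tpbpa and Ascl2 below the medians of all arrays) summed to 149 to 161 and to 618, 140 and 150. Both lists were thus high in replicate 1 and not in the others.

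The 6 primitive erythroid markers (Gata1 below the array medians) summed to 23358 to 33714 in the single knockout and to 249, 34353 and 2723 in the double knockout, so they were low in replicates 1 and 3. Epiblast and streak markers (8 measured, with Eomes and Fgf5 below the array medians) summed to 374 to 443 and to 2543, 523 and 599. The sum was above the single knockout in all 3 arrays, but its members did not all move alike. With all arrays, 7 of 8 had differences above 0, and 3 had groups apart on the higher side (all genes, 4.85%). Pou5f1 read 10.77 in replicate 1, beside 5.31 to 6.51 in the single knockout. Tdgf1 in replicate 1 (5.87) and Mixl1 in replicate 2 (5.86) read below every single knockout array. Among tissues where HoxB genes act, the 8 neural tube markers summed to 4012 to 4588 in the single knockout and to 2619, 4190 and 4534 in the double knockout. Zic1, Olig2 and Neurog2 were lower in every double knockout array than in any single knockout array (-2.45, -1.31 and -1.17, or -1.39, -0.91 and -0.88 without replicate 1). The 8 paraxial mesoderm markers summed to 2504 to 2992 and to 2263, 2439 and 2466. Meox1, Tcf15 and Myf5 of that list had groups apart in the same direction, so the count was 3 of 8 (37.5%) in both lists. With all arrays, 11.4% of all genes had groups apart, 6.60% on the lower side. Without replicate 1, groups were apart for 3 lower and 2 higher neural tube markers. The higher ones were Sox1 and Pax6, at 0.34 and 0.16 (0.14 and -0.75 with all arrays). For paraxial mesoderm the counts without replicate 1 were 4 lower and 0 higher. Over all 18193 genes they were 2244 lower (12.3%) and 1819 higher. Zic1, Sox1, Pax6, Tcf15, Pou5f1, Tdgf1 and Mixl1 were named after their values were seen. Lateral and intermediate mesoderm markers (5 measured) summed to 2241 to 2449 and to 2614, 2238 and 2621.

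The other Hox clusters give a frame for these values, although no difference between clusters was tested. HoxA had 7 of 9 measured genes below 0 with a median of -0.36, or -0.21 without double knockout replicate 1. HoxC had 7 of 7 below 0 with a median of -0.71, or -0.45. HoxD had 3 of 8 below 0 with a median of 0.02, or 0.05. Hoxd10, Hoxd11, Hoxd12 and Hoxd13 read below the array medians in all 6 arrays, where RMA compresses differences. So did Hoxa4, Hoxa13, Hoxc10 and Hoxc13, and Hoxa4 is among the HoxA genes counted next. Groups did not overlap, on the lower side, for 4 HoxA, 4 HoxC and 2 HoxD genes, beside 6.60% of all genes. Without replicate 1 these counts were 4 HoxA, 6 HoxC and 2 HoxD genes, beside 12.3% of all genes. None of the 24 genes passed the threshold. With all arrays, the smallest unadjusted p in each cluster belonged to Hoxa5 (-0.69, SE 0.10), Hoxc9 (-0.71, SE 0.17) and Hoxd8 (-0.45, SE 0.15). All 3 had a limma adjusted p of 0.872. Next were Hoxa3 (-0.27), Hoxc5 (-0.84) and Hoxd3 (-0.71). Without replicate 1 these values were -0.60, -0.51 and -0.29 for Hoxa5, Hoxc9 and Hoxd8, and -0.22, -0.55 and -0.16 for Hoxa3, Hoxc5 and Hoxd3. Of the measured HoxB members Hoxb5os and Hoxb9 had differences beyond -0.50 with all arrays, and Hoxb5os alone without replicate 1.

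**Figure D4:**
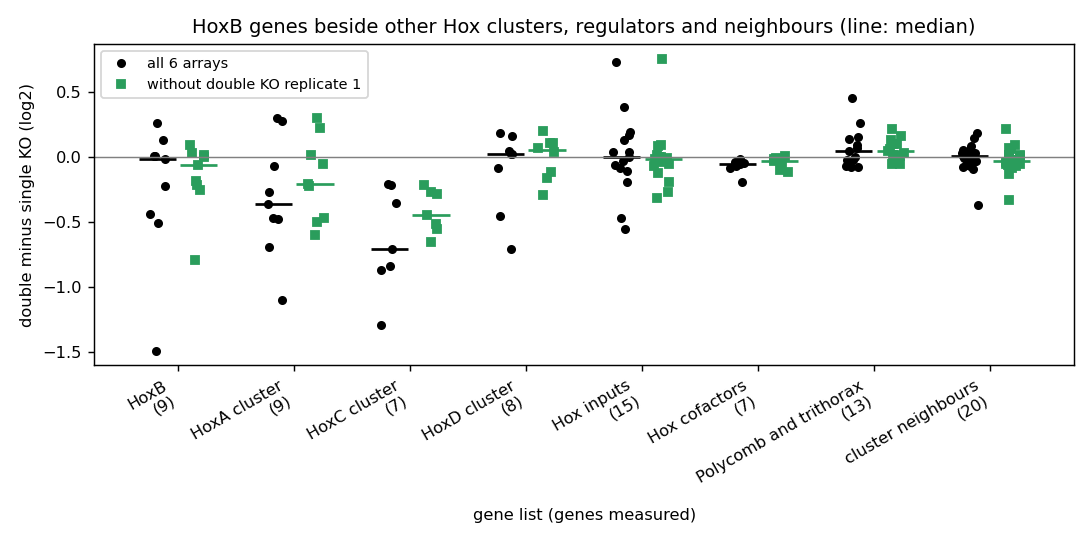
Difference of group means on the log2 scale (y axis) for the genes of each list (x axis), with all 6 arrays and without double knockout replicate 1; each point is a gene and each line a median. HoxB medians are -0.01 and -0.06, those of HoxC are -0.71 and -0.45, and the 20 neighbours of HoxB lie between -0.37 and 0.18 with all arrays.

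Genes that act on Hox transcription or with Hox proteins came from lists of known factors. Of the 15 measured inputs, among them Cdx factors, retinoic acid enzymes and receptors, Wnt3a and Fgf8, 7 were below 0 and 8 above, with a median of 0.0050, and none passed the threshold. Without double knockout replicate 1, 10 of the 15 were below 0, with a median of -0.014. Crabp2, a retinoic acid binding protein, read 12.25, 12.59 and 12.44 against 11.40, 12.14 and 12.07, a difference of -0.55 (limma adjusted p = 0.872), or -0.32 without replicate 1. Its groups did not overlap. Cyp26b1, an enzyme that breaks down retinoic acid, differed by -0.47 (-0.19 without replicate 1), with groups that did overlap. Without replicate 1, groups of the inputs did not overlap for 1 lower and 1 higher gene, beside 2244 lower and 1819 higher of all 18193 genes. The higher one was Egr2, named after its values were seen, at 0.76 (0.38 with all arrays). All 7 measured Pbx, Meis and Pknox cofactors were below 0, from -0.20 to -0.02, none with groups apart, and 6 of 7 were below 0 without replicate 1. Meis1 and Pbx2 had the smallest unadjusted p among them, at -0.20 and -0.09 (-0.10 and -0.05 without replicate 1). Of 13 Polycomb and trithorax genes, which keep Hox genes silent or active, 6 were below 0 and 7 above. Without replicate 1, 3 of the 13 were below 0. With all arrays, groups did not overlap for 1 lower and 1 higher gene, beside 6.60% and 4.85% of all genes. Without replicate 1 this was 1 lower and 3 higher, beside 2244 lower and 1819 higher of all 18193 genes. Cbx7, a Polycomb subunit, differed by 0.46 (0.22 without replicate 1) and Ezh1, a histone methyltransferase, by 0.14.

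The genes next to the cluster lay on both sides of 0. Among the 10 measured protein-coding genes nearest on each side, 9 of 20 were below 0 and 11 above, with a median of 0.0068, and 1 gene had groups that did not overlap (Nfe2l1, named after its values were seen, at -0.07). Without replicate 1, 12 of 20 were below 0 (all genes, 53.3%), and groups did not overlap for 3 lower and 3 higher genes. Over all 18193 genes in that setting, 2244 did not overlap on the lower side (12.3%) and 1819 on the higher side. B4galnt2, named after its values were seen, was at -0.33 without replicate 1 (0.18 with all arrays). The smallest unadjusted p with all arrays belonged to Lrrc46 (0.14, or 0.06 without replicate 1) and Copz2 (-0.37, or -0.07 without replicate 1). Hoxb13, the outlying member of the cluster beyond Hoxb9, was among these neighbours and read 4.50 in each single knockout array and 4.54, 4.46 and 4.42 in the double knockout, below the array medians. Of the 194 measured genes between HoxB and Fzd2, 14.4% had groups apart, beside 11.4% of all genes, and none passed the threshold.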

How the data were processed

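The authors deposited log2 values for 45101 probe sets on 6 single-colour Affymetrix arrays, made with RMA per the submitters' processing notes. The RMA version is not given in the sources used, and the log2 scale was read from the values (2.64 to 15.17). RMA compresses differences near background, and 3 arrays a group limit how precise each value is. Of the probe sets, 34945 had 1 symbol in the platform annotation, 932 had several, 9160 had none and 64 were controls. Probe sets with 1 symbol gave 18193 genes, with the probe set of highest 6-array mean standing for each gene. Gene identifiers matched a RefSeq table (GRCm38.p6) for 99.12% of genes, which gave gene order.

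Groups and replicate numbers came from the titles. No source says that replicates were separate litters, so p-values reflect only the spread among these arrays, part of which may be technical. Double and single knockout were compared with limma 3.58.1 (R 4.3.3; lmFit, eBayes), with Benjamini-Hochberg adjustment over all genes and a threshold of 0.05. On simulated data with 18193 genes and 200 changed, this comparison recovered 88% of 2-fold and 97% of 4-fold changes. Of its calls, 6.57% were false. The simulated noise was independent between arrays, with the same spread in both groups and no array apart like double knockout replicate 1. The shares do not apply to smaller changes, and they do not say how often a HoxB change would be called in the real arrays.

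All 10 members were named. From other lists came members past the threshold, otherwise the 2 of lowest unadjusted p. Members and lists were chosen with earlier results of these data known. The alternatives were array weights, a replicate block, robust moderation with an intensity trend, median centring, quantile normalization once more, every probe set tested, probe sets averaged, dim genes left out and each array left out in turn.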

Additional observations from a re-analysis of the deposited data

How the results depend on the processing

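No measured HoxB member passed the threshold under any of the 14 alternatives run, and the count of members below 0 ran from 4 to 7 with an array left out and was 5 in the others. Hoxb5os (-1.93 to -0.79), Hoxb3 (-0.56 to -0.26), Hoxb9 (-0.67 to -0.21), Hoxb4 (-0.24 to -0.19) and Hoxb1 (0.09 to 0.39) kept their sign in all 14. Hoxb2, Hoxb5, Hoxb6 and Hoxb7 changed sign, each only with an array left out, over ranges of -0.079 to 0.046 for Hoxb2, -0.019 to 0.022 for Hoxb5, -0.059 to 0.24 for Hoxb6 and -0.029 to 0.034 for Hoxb7. Sign changes were 0.046 and 0.0020 for Hoxb2 (without single knockout replicate 3 or double knockout replicate 1), -0.0090 and -0.019 for Hoxb5 (single 2, double 3), -0.059 for Hoxb6 (double 1), and -0.0030 and -0.029 for Hoxb7 (single 1, double 3). Hoxb7 was not tested with dim genes left out, where the member median was -0.12. The call of Fzd2 was lost with the mean of its probe sets (limma adjusted p = 0.0691) and when 1 array was left out, for each single knockout array (0.0831, 0.12 and 0.109) and for the double knockout array 3 (0.0759). Whether replicate numbers pair the arrays could not be settled with 3 arrays a group. Same-numbered arrays' deviations from their group means correlated at 0.0941, -0.0368 and -0.13 across genes. Those of differently numbered arrays correlated at -0.147 to 0.275. With the replicate block 5 members were below 0, 0 passed, and 1 gene was called in all. Double knockout replicate 1 had the lowest array weight, 0.281 beside 0.969 to 1.6.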
